A study of Homo sapiens with 6 samples.

Results

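Cytosolic ribosomal protein genes encode the protein parts of the ribosomes that translate messenger RNA outside mitochondria. They were taken as the platform-annotation symbols that start with RPL or RPS and a digit, plus RPLP0, RPLP1, RPLP2 and RPSA, without the RPS6K and RPS19BP1 symbols and without pseudogenes. Of 17687 gene symbols on the arrays, 69 began this way, 10 of them RPS6K symbols and 1 RPS19BP1, which left 58, each with 1 probe set. None was a pseudogene symbol. There were 35 large subunit genes (RPL) and 23 small subunit genes (RPS). By symbol, 45 were core genes, 10 were paralogues (second gene copies such as RPL22L1 beside RPL22) and 3 were readthrough symbols (RPL17-C18orf32, RPL36A-HNRNPH2 and RPS10-NUDT3), which name transcripts that run from a ribosomal protein gene into its neighbour. Of the genes listed for description, 18 had no named probe set and were not analysed here, among them RPLP0, RPLP2, RPL5, RPL10, RPL3, RPL39, RPS2, RPS3 and RPSA.

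RNA was measured on 6 Affymetrix arrays and came from Jurkat, a long-established human cell line of T-cell acute lymphoblastic leukaemia (T-ALL). The 3 CXCL12 samples were kept without serum for 90 min and then given the chemokine CXCL12 at 100 ng/ml for 15 min. The 3 untreated samples had the same 90 min without serum and no CXCL12. Both were grown in medium with 10% serum beforehand, and their titles call them biological replicates without saying whether they were separate cultures, so the spread behind each p-value may be technical in part.

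A ribosome has a small subunit, which reads the messenger RNA, and a large subunit, which joins the amino acids. Core proteins are needed in matched amounts. Most ribosomal protein messenger RNAs begin with a terminal oligopyrimidine (TOP) tract, a run of pyrimidines (C and T in the gene), through which the kinase mTORC1 and the protein LARP1 control their translation. That control acts on translation and need not show in RNA levels. Dividing leukaemia cells make many ribosomes, and mutations or deletions of RPL5, RPL10, RPL11 and RPL22 occur in T-ALL.

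The windows around the annotated transcription starts are shown for members of paralogue pairs and for RPS6. They were chosen since the paralogues differ in whether a long run of pyrimidines stood near the annotated start. RefSeq promoters of GRCh38.p14 matched 51 of the 58 genes, and RPL7 was not among them. The window of RPS4Y1, with a run of 9 bases, is not shown. Each window has 10 bases before the start and 20 from it, read along the gene's strand, and capitals mark its longest run of C and T. For genes with several annotated starts, the one with the longest run was taken.
RPL22 (chr1:6199576-6199605, minus strand): cgctcaCCTCCCTTTCTaactccgctgccg
RPL22L1 (chr3:170870176-170870205, minus strand): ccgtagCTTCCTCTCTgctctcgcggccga
RPL36A (chrX:101391001-101391030, plus strand): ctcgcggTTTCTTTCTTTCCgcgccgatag
RPL36AL (chr14:49620607-49620636, minus strand): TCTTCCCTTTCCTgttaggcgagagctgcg
RPL26 (chr17:8383174-8383203, minus strand): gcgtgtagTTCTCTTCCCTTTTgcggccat
RPL26L1 (chr5:172958719-172958748, plus strand): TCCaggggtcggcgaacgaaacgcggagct
RPS27 (chr1:153990752-153990781, plus strand): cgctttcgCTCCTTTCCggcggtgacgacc
RPS27L (chr15:63157458-63157487, minus strand): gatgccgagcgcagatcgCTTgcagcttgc
RPL7L1 (chr6:42879606-42879635, plus strand): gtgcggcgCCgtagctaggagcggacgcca
RPS4X (chrX:72277229-72277258, minus strand): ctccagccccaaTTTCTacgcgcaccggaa
RPS6 (chr9:19380217-19380246, minus strand): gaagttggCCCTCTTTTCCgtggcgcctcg

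A run of at least 8 such bases, a length chosen after the windows were seen, stood in 37 of 41 core genes (90.2%) and in 3 of 8 paralogues (37.5%), against 15.4% of the 27305 genes in the promoter table. RPL22L1, RPL36AL and RPS4Y1 were the 3 paralogues with one. RPL7L1, RPL26L1 and RPS27L had runs of 2, 3 and 3 bases. Among core genes the median run was 11 bases, against 5 bases for all genes. RPS4X, with 5 bases, was one of the 4 core genes below 8. In the full promoters (250 bases before the start to 50 after), the ETS factor core CCGGAAG, searched on both strands, was present in 14 of 41 core genes (34.1%), against 12.2% of all genes. The TATA motif TATAAA, which cannot overlap CCGGAAG, was present in 1 of the 41 (2.44%), against 14.0% of all genes. Of the 8 paralogues, 2 held CCGGAAG and 2 held TATAAA. These are letter matches in annotated windows and show no binding. A run may begin before or after the annotated start, so it does not by itself mark a TOP tract.

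As a check of the cells, all 11 T cell markers with a named probe set, among them CD3D, CD3E, CD3G and LCK, had mean log2 signals above the limit of 4.44 below which probe sets were treated as dim. Their summed log2 signal ran from 98.0 to 98.9 over the CXCL12 arrays and from 97.2 to 98.7 over the untreated arrays. The limit is lenient: 3 of 4 B cell, 4 of 5 myeloid, 3 of 3 erythroid and 3 of 3 fibroblast markers with a probe set lay above it too, with MS4A1 and LYZ dim. Over CXCL12 arrays the summed log2 signal ran from 24.08 to 24.53 for B cell, 25.26 to 25.49 for myeloid, 17.08 to 17.93 for erythroid and 19.06 to 20.01 for fibroblast markers. Over untreated arrays it ran from 24.1 to 24.57, 25.11 to 25.47, 16.88 to 17.19 and 19.18 to 19.53 in the same order. Each sum grows with its number of markers, so the sums compare arrays and not cell types. RAG1, at 4.57, was the T cell marker closest to the limit. RAG1 and PTCRA (6.21) lay below CD79A (7.92), COL1A2 (7.85) and HBA1 (7.46), and the other T cell markers lay above CD79A. Untreated replicate 1 stood apart, with a mean correlation of 0.982 with the other arrays, against 0.987 to 0.989 for the rest. EGR1, an immediate early transcription factor gene, rose with CXCL12 on these arrays, with a mean log2 signal of 7.97 in CXCL12 arrays and 5.99 in untreated arrays (limma adjusted p = 4.52e-05).

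The core ribosomal protein genes gave some of the brightest signals of the arrays. Of the 45, 44 lay in the top 5% of all 21448 probe sets by mean signal, and their mean log2 signals ran from 9.35 (RPL27) to 12.44 (RPL38). The highest value of any probe set on any array was 13.1. RPL38, a small protein of the large subunit, had 12.42, 12.42 and 12.43 in CXCL12 arrays and 12.41, 12.45 and 12.51 in untreated arrays. RPS23, a small subunit protein at the decoding centre, had 12.39, 12.37 and 12.48 in CXCL12 arrays and 12.47, 12.36 and 12.40 in untreated arrays. In both genes the groups overlapped and every array lay within 0.12 of the others. Paralogues gave lower signals, with a median of 8.08 over the 10, and the lowest were RPS4Y2 (4.15, dim and not tested) and RPL10L (4.82). A signal depends on a gene's probes, so these places do not rank the amounts of transcript.

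CXCL12 for 15 min moved no ribosomal protein gene past the threshold. The comparison was fitted with limma over 16086 probe sets, and 0 of the 57 tested members had an adjusted p under 0.05, where 2 of all probe sets did (0.0124%). At an unadjusted p under 0.05 there were also 0 members, against 4.73% of all probe sets. The adjusted p of members ran from 0.996 to 0.999. The log2 changes, CXCL12 minus untreated, ran from -0.19 to 0.25, with 28 positive and 29 negative, where 50.7% of all probe sets were positive. Their median was -0.001, beside 0.002 over all tested probe sets. The 95% interval of the change stayed within a 1.5-fold change either way for 56 of 57 members (98.2%), against 89.9% of all tested probe sets. RPL22L1 was the exception. Of the 58 members, 47 lay in the top 5% of probe sets by mean signal, and the part of signal level in these shares was not tested. A p that misses the threshold does not show that levels were equal, and the median half-width of the members' intervals was 0.27 on the log2 scale.

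**Figure D1:**
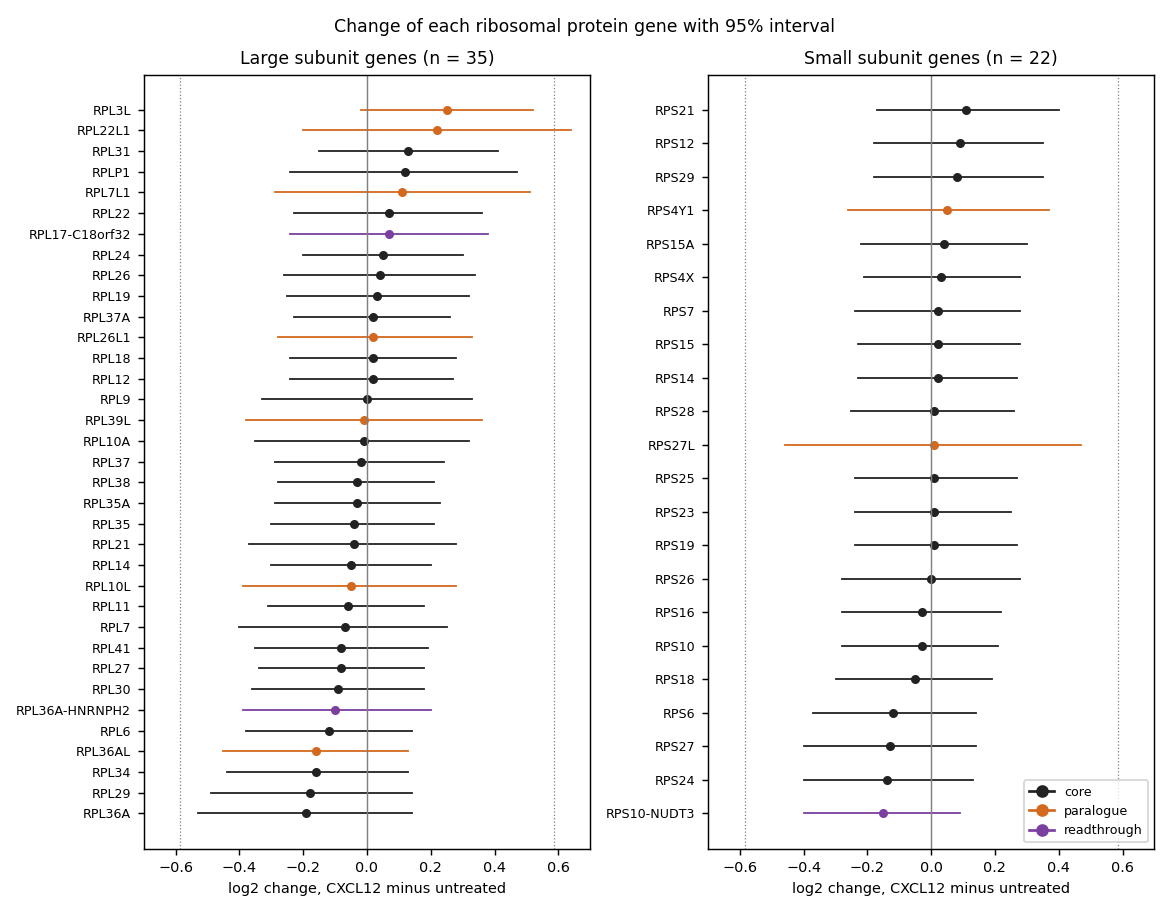
Log2 change (CXCL12 minus untreated, horizontal axis) of each tested ribosomal protein gene with limma's 95% interval, large subunit left and small subunit right, coloured by kind, with dotted lines at a 1.5-fold change. Every interval includes 0, and the interval of RPL22L1 alone crosses a dotted line.

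Among large subunit genes, 14 changes were positive and 21 negative, with a median of -0.022. In the small subunit, 14 were positive and 8 negative, with a median of 0.010. Neither direction was stable when an array was left out: the large subunit median then ran from -0.069 to 0.032 and the small subunit median from -0.022 to 0.030. The difference between the subunits was not tested.

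The stalk of the large subunit recruits translation factors. RPLP1, a stalk protein, had 11.92, 11.70 and 11.89 in CXCL12 arrays and 11.33, 11.90 and 11.93 in untreated arrays. Untreated replicate 1 was the low array and the groups otherwise overlapped. Its log2 change was 0.12 (95% interval -0.24 to 0.47), and -0.077 without untreated replicate 1. RPL12, at the base of the stalk, had a change of 0.02 (-0.24 to 0.27).

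RPL11 forms, with RPL5 and a small ribosomal RNA, the particle that can bind the p53 regulator MDM2. Its log2 signals were 11.88, 11.95 and 11.85 in CXCL12 arrays and 12.01, 11.89 and 11.97 in untreated arrays, which overlapped. The change was -0.06 (95% interval -0.31 to 0.18). Around the exit of the tunnel through which the new protein leaves, RPL19 had a change of 0.03, RPL26 of 0.04, RPL35 of -0.04 and RPL31 of 0.13. RPL31 had the largest positive change among core genes. It had 11.99, 11.71 and 11.79 in CXCL12 arrays and 11.57, 11.72 and 11.82 in untreated arrays, with CXCL12 replicates 2 and 3 inside the untreated range. Without CXCL12 replicate 1 its change was 0.050, and without CXCL12 replicate 2 it was 0.190.

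The largest negative changes were in RPL36A and RPL29, both of the large subunit. RPL36A had 10.86, 11.03 and 10.90 in CXCL12 arrays and 11.46, 10.84 and 11.08 in untreated arrays, with a change of -0.19 (95% interval -0.53 to 0.14). Untreated replicate 1 was the high array, and without it the change was -0.028. Without untreated replicate 2, the lowest array, it was -0.337. RPL29 had 10.60, 10.37 and 10.39 in CXCL12 arrays and 10.39, 10.61 and 10.87 in untreated arrays. Its change was -0.18 (-0.49 to 0.14). It was -0.052 without untreated replicate 3, its highest array, and -0.294 without untreated replicate 1. RPL34 had a change of -0.16 (-0.44 to 0.13), or -0.082 without CXCL12 replicate 3 and -0.251 without untreated replicate 2.

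In the small subunit, RPS6 is the protein that S6 kinases phosphorylate downstream of mTORC1. It had 11.78, 11.60 and 11.77 in CXCL12 arrays and 11.86, 11.80 and 11.84 in untreated arrays. Each CXCL12 array was lower than each untreated array, by a mean of -0.12 on the log2 scale (95% interval -0.37 to 0.14, limma adjusted p = 0.996). The change was -0.058 without CXCL12 replicate 2, its lowest array, and -0.148 without CXCL12 replicate 1. RPS10-NUDT3 was likewise lower in every CXCL12 array, with 8.41, 8.34 and 8.40, against 8.51, 8.55 and 8.54 in untreated arrays (change -0.15, interval -0.40 to 0.09). RPS10 itself had a change of -0.03 (-0.28 to 0.21), and since the readthrough shares sequence with RPS10, how signal divides between their probe sets is uncertain. These were the 2 of 57 members with all CXCL12 arrays below all untreated ones, against 4.48% of all tested probe sets. RPL3L, described among the paralogues, was the 1 member with all CXCL12 arrays above, against 5.05%. Together, 3 of 57 had groups that did not overlap, against 9.54%.

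The groups of the other tested small subunit genes overlapped. RPS24 had a change of -0.14 (95% interval -0.40 to 0.13), or -0.070 without untreated replicate 3 and -0.190 without untreated replicate 2. RPS27 had -0.13 (-0.40 to 0.14), or -0.077 without untreated replicate 1 and -0.209 without untreated replicate 2. RPS21 had 0.11 (-0.17 to 0.40) and RPS12 0.09 (-0.18 to 0.35). RPS21 was 0.025 without untreated replicate 1 and 0.190 without CXCL12 replicate 2. RPS14, reduced in a myelodysplastic syndrome with a chromosome deletion, had 10.58, 10.61 and 10.61 in CXCL12 arrays and 10.53, 10.53 and 10.69 in untreated arrays. Its groups overlapped, with a change of 0.02 (-0.23 to 0.27). RPS19, often mutated in Diamond-Blackfan anaemia, an inherited failure of red cell production, had 0.01 (-0.24 to 0.27). Of 19 listed Diamond-Blackfan genes, 16 were tested, with 8 positive and 8 negative changes, 0 past the threshold and a median of 0.002. RPS24 and RPS27 had the smallest p among them.

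The paralogues varied more from array to array than the core genes when the spread was pooled over both groups. The within-group SD of the log2 signal had a median of 0.214 over the 10 paralogues and of 0.092 over the 45 core genes, beside 0.162 over all tested probe sets. The paralogues also had lower signals, and the part of signal level in this difference was not tested. RPS27L, a copy of RPS27 induced by p53, had the largest SD of all members, 0.385. It had 8.50, 7.69 and 8.17 in CXCL12 arrays and 8.06, 7.78 and 8.50 in untreated arrays. CXCL12 replicate 1 and untreated replicate 3 were thus both high, and the group means of 8.12 ± 0.41 and 8.11 ± 0.36 (SD, n = 3 each, CXCL12 and untreated) gave a change of 0.01 (95% interval -0.46 to 0.47).

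RPL22L1 is the copy of RPL22, a protein that developing T cells need in mice. RPL22L1 had 9.07, 8.35 and 8.85 in CXCL12 arrays and 8.41, 8.32 and 8.88 in untreated arrays. Again CXCL12 replicate 1 and untreated replicate 3 were high, and the groups overlapped. Its change was 0.22 (95% interval -0.20 to 0.64), or 0.065 with CXCL12 replicate 1 left out and 0.429 with CXCL12 replicate 2 left out. RPL22 had 12.13, 11.88 and 12.11 in CXCL12 arrays and 11.83, 11.93 and 12.17 in untreated arrays, with a change of 0.07 (-0.23 to 0.36).

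RPL3L, the striated muscle form of RPL3, had the largest positive change of all members. It had 7.82, 7.63 and 7.54 in CXCL12 arrays and 7.32, 7.43 and 7.50 in untreated arrays. The groups did not overlap, though CXCL12 replicate 3 lay 0.04 above untreated replicate 3. The change was 0.25 (SE 0.12, 95% interval -0.02 to 0.52, limma adjusted p = 0.996). RPL3 had no named probe set to set beside it.

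The other paralogues had overlapping groups. RPL7L1, a factor in large subunit assembly, had 8.97, 8.49 and 8.94 in CXCL12 arrays and 8.29, 8.79 and 8.98 in untreated arrays, with a change of 0.11 (95% interval -0.29 to 0.51). The change was -0.087 without untreated replicate 1, its lowest array, and 0.266 without CXCL12 replicate 2. RPL36AL had a change of -0.16 (-0.45 to 0.13) and RPL26L1 of 0.02 (-0.28 to 0.33). RPS4Y1, the Y-linked copy of the X-linked RPS4X, had 0.05 (-0.26 to 0.37), and RPS4X had 0.03 (-0.21 to 0.28). The testis genes RPL39L and RPL10L had -0.01 (-0.38 to 0.36) and -0.05 (-0.39 to 0.28). RPS4Y2 had mean log2 signals of 4.21 in CXCL12 and 4.09 in untreated arrays.

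Whether the members of a pair changed unequally was asked for 6 pairs, from the log2 difference between them within each array. RPL22L1 minus RPL22 was -3.06, -3.54 and -3.26 in CXCL12 arrays and -3.42, -3.61 and -3.30 in untreated arrays. The means differed by 0.16 and the groups overlapped (two-sided exact permutation test, p = 0.4, the smallest of the 6). For RPL7L1 minus RPL7 the means differed by 0.18, with -2.93 ± 0.23 in CXCL12 arrays and -3.12 ± 0.56 in untreated arrays (SD, n = 3 each, exact permutation p = 0.7). The other 4 pairs differed by between -0.02 and 0.13. The adjusted p over the pairs was 1 in all 6, and 3 arrays against 3 cannot give a p below 0.1.

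**Figure D2:**
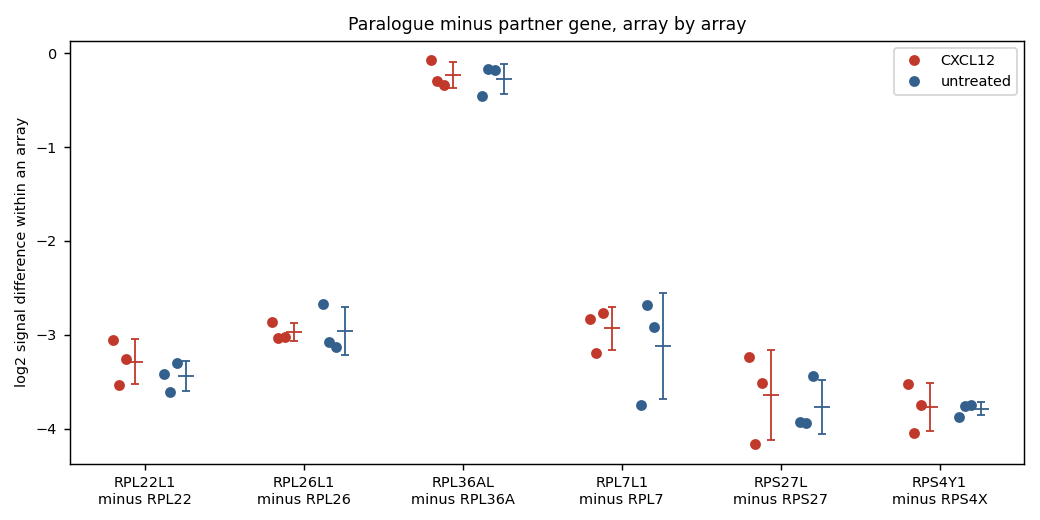
Log2 signal of the paralogue minus that of its partner gene within each array (vertical axis) for 6 pairs, with points for arrays and bars for the mean ± SD of 3 arrays. In each pair the CXCL12 and untreated arrays overlap, and the height of a pair depends on its probes and is not a ratio of transcripts.

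The members' levels shifted from array to array within each group. Each value was set against the gene's mean over the 6 arrays. The median of these deviations over the 57 tested members was 0.057, -0.053 and -0.012 in CXCL12 replicates 1, 2 and 3 and -0.012, -0.038 and 0.063 in untreated replicates 1, 2 and 3. Over all tested probe sets it lay between -0.008 and 0.013 on each array, where normalization across arrays keeps it nearly level. It does not show how far the median of a short list moves, and no other list of similar size or signal was compared. The 9 tested paralogues spread further, with medians of 0.252, -0.236 and 0.049 in CXCL12 arrays and -0.060, -0.110 and 0.119 in untreated arrays. For the paralogues, the gap between CXCL12 replicates 1 and 2 was wider than that between the groups. These arrays held the highest and lowest medians, and single arrays vary more than means of 3. The wider gap therefore does not weigh the effect of CXCL12.

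CXCL12 replicate 1 was the highest array for 13 of 57 members and untreated replicate 3 for 19. CXCL12 replicate 2 was the highest for 0 and the lowest for 16. Untreated replicate 1 was at an extreme most often, the highest array for 16 members and the lowest for 15. RPL36A and RPL7 were among its high ones, and RPLP1, RPL10A and RPL7L1 among its low ones. Untreated replicate 1 also had the lowest mean correlation with the other arrays over all tested probe sets (0.982). The same counts of highest and lowest arrays were not made over all probe sets. The cause of these shifts between arrays was not tested.

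**Figure D3:**
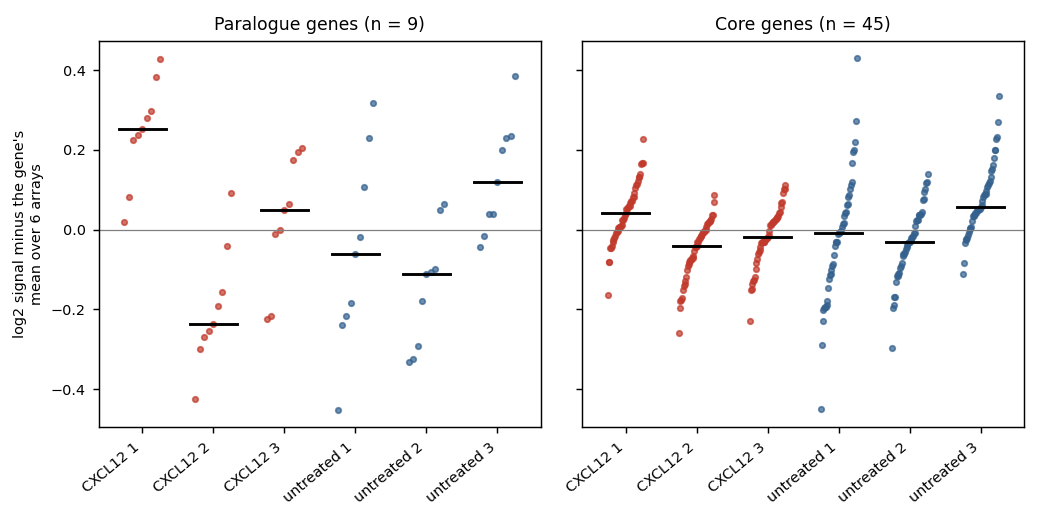
Log2 signal of each member minus its mean over the 6 arrays (vertical axis), for CXCL12 and untreated arrays, with paralogues left and core genes right and bars at the medians. Paralogues spread from a median of 0.252 in CXCL12 replicate 1 to -0.236 in CXCL12 replicate 2, while core medians stay between -0.040 and 0.057.

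Genes that work with ribosomal proteins did not pass either. FAU, whose product carries a small subunit protein, had a mean log2 signal of 10.64 in CXCL12 arrays and 10.64 in untreated arrays (95% interval of the change -0.32 to 0.32). Of 16 listed translation factors and other TOP messenger RNAs, 10 were tested, with 3 positive and 7 negative changes, 0 past the threshold and a median of -0.047. NPM1, a nucleolar chaperone, had -0.26 (-0.58 to 0.06), and HNRNPA1, an RNA-binding protein, had -0.13 (-0.38 to 0.12). Elongation factor EEF1A1 had 0.01 (-0.24 to 0.26).

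S6 kinases and mTORC1 pathway genes had 5 positive and 11 negative changes among 16 tested, with a median of -0.067 and 0 past the threshold. RHEB, the GTPase that activates mTORC1, had -0.25 (95% interval -0.59 to 0.08), and RPS6KA3, an ERK-activated kinase, had 0.24 (-0.10 to 0.59). LARP1, the TOP-binding protein, had -0.11 (-0.37 to 0.15). Ribosomal protein chaperones had 5 positive and 3 negative changes and a median of 0.053. PDCD2L and PDCD2, which escort RPS2, had 0.15 (-0.17 to 0.46) and 0.14 (-0.17 to 0.46).

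The 74 mitochondrial ribosomal protein genes, which serve the separate ribosomes of mitochondria, had 27 positive and 47 negative changes and a median of -0.042, again with 0 past the threshold. Their extremes by p were MRPS27 (-0.24, 95% interval -0.52 to 0.03) and MRPL39 (0.28, -0.04 to 0.60). Their median within-group SD was 0.161, against 0.106 over the 57 tested cytosolic genes. No difference in change between the cytosolic and the mitochondrial genes was tested.

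**Figure D4:**
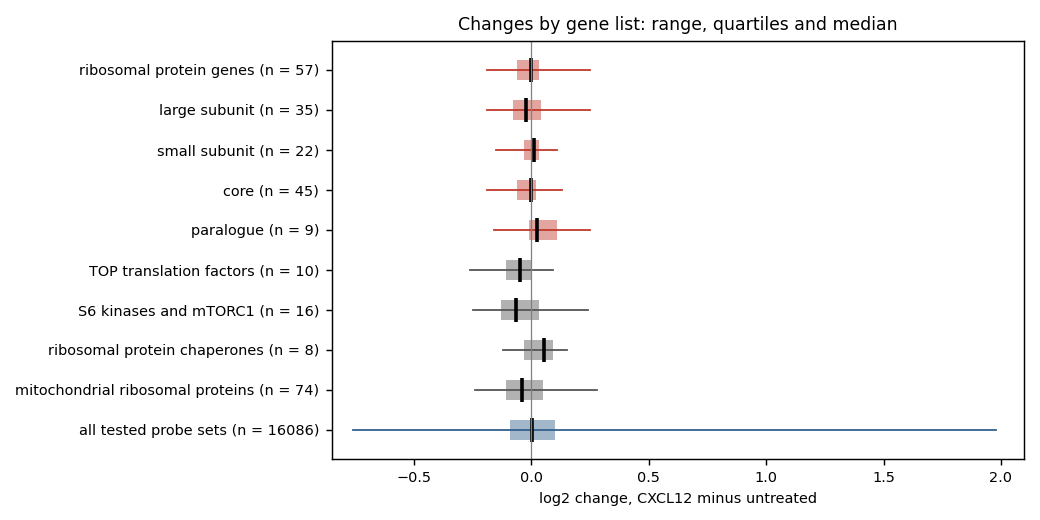
Log2 change (CXCL12 minus untreated, horizontal axis) by gene list, with lines for the full range, boxes for the quartiles and ticks for the median. Each median shown lies between -0.067 and 0.053, and the ribosomal protein genes stay within -0.19 and 0.25 while all tested probe sets reach 1.98.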

How the data were processed

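The authors deposited 1 log2 signal per probe set and array (21448 probe sets, 6 arrays), and RMA and the Transcriptome Analysis Console are named per the submitters' processing notes. Their versions and settings, and a genome build, are not stated in those notes, and scanner files were not used. Gene names came from the platform annotation (17709 probe sets had 1 symbol, 3739 are unnamed here). Dim probe sets, those whose mean lay under the 25th percentile (log2 4.44), were left out. limma 3.58.1 in R 4.3.3 was fitted to 3 CXCL12 and 3 untreated arrays without covariates, two-sided, with Benjamini-Hochberg adjustment over 16086 probe sets and a threshold of 0.05. It was tested on simulated data. Paralogue pairs were compared by an exact permutation test over arrays. Values are log2 signals, errors are SD or limma's 95% interval, and the number of arrays limits the precision.

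The members and lists were chosen with earlier results of these data known. Genes named were paralogue pairs, the 6 members with the smallest p in each direction, genes of fixed structural roles, signal extremes, readthrough and dim symbols and 2 genes per further list. RPL27, RPL37A, RPS18, RPL21, RPL10A, RPS10, EEF1A1 and LARP1 were added after their values were seen. Alternatives were other filters, renormalization, array weights, a trended robust prior, a replicate block, other memberships and leaving out each array. No pairing by replicate number is stated, and deviations of same-numbered arrays correlated at -0.189, -0.105 and 0.11, so the numbers were not taken as pairs.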

Additional observations from a re-analysis of the deposited data

How the results depend on the processing

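The count of 0 ribosomal protein genes past the threshold held under every alternative run, including leaving out each array and an unadjusted p. With arrays left out singly, their median change lay between -0.041 and 0.028, the large subunit median between -0.069 and 0.032 and the small subunit median between -0.022 and 0.030. Other settings gave -0.022 to 0.025 over all members. The alternatives with core genes alone and without RPL21 were chosen after seeing the data. The count of 2 among all probe sets became 1 without the dim filter, by cyclic loess or by median centring, 3 under the trended robust prior or a 50% filter, 4 with array weights and 761 under an unadjusted p. It was 1 or 2 in each fit that left out an array. With the replicate block it stayed 2, with 0 members. There 1 of 6 paralogue pairs (RPL22L1 minus RPL22) differed in the same direction in each numbered pair. A shared sign over so few numbered pairs can arise by chance and was not tested. Without the block, 0 pairs had groups apart, and leaving arrays out singly gave 0 or 1. Array weights and priors do not enter the pair test. Averaging probe sets changed nothing, since each member has 1. Of 797 member changes recomputed, 86 had the other sign, in 32 of 57 members, with 60 of these from leaving out an array. None of these changes was called, and the largest in the main comparison was 0.118 in size. The causes were not tested. Intervals of about 0.27 either side limit what smaller changes can show.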

Other observations

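The probe set named RPL21 carries chromosome 10 in its identifier, while RefSeq (GRCh38.p14) places RPL21 on chromosome 13. For the other 57 members both sources gave the same chromosome. Ribosomal protein genes have many processed pseudogenes, and which transcripts this probe set reads was not tested. Its log2 signals were 11.23, 10.86 and 11.03 in CXCL12 arrays and 10.87, 11.04 and 11.33 in untreated arrays, and its change of -0.04 was not called.

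RPL3L, described as a muscle gene, had mean log2 signals of 7.66 in CXCL12 arrays and 7.42 in untreated arrays, above 71.4% of all probe sets in mean signal. RPL39L, a testis gene, had 7.60 in CXCL12 and 7.61 in untreated arrays (above 72.4%). RPL10L, also a testis gene, had 4.79 in CXCL12 and 4.84 in untreated arrays (above 30.2%). Without detection calls, these signals do not show expression.

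The core genes with the steadiest signals were RPL37A, RPL38 and RPS18, whose within-group SDs were 0.021, 0.037 and 0.041. They were among the brightest probe sets (percentiles 99.5, 99.9 and 99.9 by mean signal), and the part of signal level in this steadiness was not tested. RPL37A lay between 11.71 and 11.76 in CXCL12 arrays and between 11.71 and 11.72 in untreated arrays. Among core genes, the 37 with a run of at least 8 pyrimidines in the window around the start had a median change of -0.0014. The 4 without such a run had a median of 0.0252, with no test.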
